A study of Mus musculus with 35 samples.

Results

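The genes described here are 9 neighbours of Mycl on mouse chromosome 4, followed across 35 expression arrays of type 1 conventional dendritic cells (cDC1) sorted from mouse spleen. They are Slc2a1, Svbp, Ppcs, Ctps, Rlf and Cap1 on one side of Mycl and Ndufs5, Fhl3 and Thrap3 on the other, 9 of the 19938 genes that could be named on the array. They were listed by name as genes near Mycl, with measured values in view. Within 40 tested genes on either side of Mycl they are exactly the genes with an adjusted p under 0.05 in the comparison of Mycl KO with wild-type cDC1 called set 2 below, so they count as chosen by their set 2 values. Those values are therefore given as a description and support nothing. The arrays of the other sets did not enter that choice by threshold, but their results were known when the genes were listed. Values and counts of the 9 genes in the other Mycl KO comparisons, sets 1 and 3 below, are therefore also a description. They support nothing, also where they are set beside the share over all genes.

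The Mycl KO arrays came from mice labelled MyclGFP/GFP, which carry a GFP allele of Mycl on both chromosomes. Set 1 compared 4 Mycl KO arrays with 5 arrays of heterozygous mice (HET, MyclGFP/+) at steady state. Set 2 compared 5 Mycl KO arrays with 5 wild-type arrays (WT, Mycl+/+) at steady state. Set 3 compared 5 Mycl KO arrays with 5 WT arrays, all from mice injected with 100 µg of poly IC 5 h earlier. Poly IC mimics viral RNA and sets off interferon production. A further set held 3 arrays labelled Mxd1 KO (Mxd1-/-) and 3 WT arrays (Mxd1+/+), taken 18 h after 100 µg of poly IC. It serves as a comparison on another gene, and its labels name no change at Mycl. The labels give no strain, age or breeding history, and they do not say whether each biological replicate is a different mouse, so p-values measure only the spread between these samples. All Mycl KO groups carry the same GFP allele on the chromosome that holds the 9 genes. Loss of Mycl, the presence of that allele and the origin of the flanking chromosome cannot be told apart in these groups.

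Mycl encodes L-Myc, a member of the MYC family that dendritic cells express, which binds DNA with its partner MAX, preferentially at E-boxes. MYC proteins are known for driving genes of ribosome production, nucleotide synthesis and glucose use, and MXD proteins compete with them for MAX. Neighbouring genes on a chromosome are inherited together with an engineered allele unless recombination separates them. In human lung cancer RLF, a zinc finger gene next to MYCL, is found fused to it.

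Promoter windows of RefSeq (GRCm38.p6, 250 bases before to 50 after a gene's start) were searched for the E-box CACGTG, which reads the same on both strands, and for its variant CACGCG, with its reverse CGCGTG. The 9 genes had 11 windows. CACGTG stood in a window of 2 of the 9 genes, Rlf and Thrap3, beside 2187 of all 27025 genes in the table (8.09%). CACGCG or CGCGTG stood in a window of 2 of the 9, Svbp and Thrap3, beside 2835 genes (10.5%). The 9 are all tested genes, and in windows of tested genes the shares were higher. They were 9.34% for CACGTG and 15.5% for CACGCG or CGCGTG. A match is a description of letters, not a binding site. The windows of Rlf and Thrap3 are printed because they hold the E-box, and that of Ndufs5 because this gene had the largest difference of the 9 while its window held neither motif. Capitals mark the motifs. The Rlf window is chr4:121215035-121215334 on the minus strand, with CACGTG beginning 28 bases before the start. The Thrap3 window is chr4:126202661-126202960 on the minus strand, with CACGTG beginning 122 bases before the start and 1 CGCGTG after it. The Ndufs5 window is chr4:123718137-123718436 on the minus strand.
Rlf: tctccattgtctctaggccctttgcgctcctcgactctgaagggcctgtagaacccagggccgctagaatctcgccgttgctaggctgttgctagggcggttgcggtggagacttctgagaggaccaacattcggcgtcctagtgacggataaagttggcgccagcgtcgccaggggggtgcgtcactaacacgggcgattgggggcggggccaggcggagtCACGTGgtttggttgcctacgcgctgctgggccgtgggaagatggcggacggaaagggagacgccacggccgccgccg
Thrap3: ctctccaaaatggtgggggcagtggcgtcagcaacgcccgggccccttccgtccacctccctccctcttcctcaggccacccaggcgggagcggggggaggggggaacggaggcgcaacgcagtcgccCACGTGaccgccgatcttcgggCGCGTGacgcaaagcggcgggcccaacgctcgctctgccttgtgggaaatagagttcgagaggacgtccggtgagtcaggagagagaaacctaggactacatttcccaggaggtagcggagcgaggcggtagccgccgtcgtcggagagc
Ndufs5: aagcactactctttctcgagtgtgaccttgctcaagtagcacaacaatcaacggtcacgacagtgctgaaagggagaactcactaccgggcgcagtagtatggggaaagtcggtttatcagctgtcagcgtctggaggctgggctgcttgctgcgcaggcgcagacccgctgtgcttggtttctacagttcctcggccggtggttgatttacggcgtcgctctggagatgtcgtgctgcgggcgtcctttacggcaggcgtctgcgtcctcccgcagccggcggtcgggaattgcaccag

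The values are log2 levels on an RMA scale, made relative to the other transcripts of each array, so a change in total RNA per cell cannot be seen. In RNA from sorted cells, fewer cells expressing a gene and less RNA per cell cannot be told apart. The 4 sets appear to have been normalized separately, since pairs of arrays shared on average 1441 exactly equal values within set 1, 9.47 within set 2, 7.44 within set 3 and 18.7 within the Mxd1 set, and 0.112 between sets, so levels were compared only within a set. The defining cDC1 genes Xcr1 and Clec9a lay at the 97.2 to 99.3 percentile of all named genes in every group. Of the other 8 cDC1 markers Itgae was lowest, at the 69.3 percentile in Mycl KO and 80.8 in WT cells of set 3, and Batf3 next, at 94.0 or above in every group. In set 2, 4 of 10 cDC1 markers passed the test, beside 6.14% of all genes tested. Irf8 (0.21 ± 0.06), Batf3 (0.27 ± 0.07) and Tlr3 (0.26 ± 0.07) were higher and Cd8a (-0.38 ± 0.08) lower in Mycl KO. In the other 3 comparisons 0 of 10 passed. The difference was above 0 for 10 of 10 in set 1, 7 in set 2, 3 in set 3 and 7 in the Mxd1 set. Markers of other spleen cell types passed the test in 9 of 32 cases in set 2, 5 higher and 4 lower in Mycl KO. That count too stands beside 6.14% of all genes tested. In set 1 they passed in 0 of 28 cases, beside 0.0214% of all genes, and in set 3 in 0 of 30, beside 0%. In the Mxd1 set they passed in 1 of 29, beside 0.071%. In set 3 the mean log2 level of the neutrophil markers spread from 5.60 to 7.30 in Mycl KO and from 5.46 to 6.78 in WT cells, while that of the cDC1 markers lay between 9.90 and 10.11 in Mycl KO and 9.96 and 10.65 in WT cells. The part of other cells in the values below was not tested.

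Mycl itself was read first, as a check of the labels. In set 1 its log2 level was 7.07, 6.88, 6.78 and 7.11 in Mycl KO, against 9.91, 9.86, 9.85, 9.93 and 9.65 in HET cells. In set 2 it was 5.80, 5.79, 5.51, 5.52 and 5.63 in Mycl KO, against 9.79, 9.61, 9.63, 9.55 and 9.78 in WT cells. In set 3 it was 5.84, 5.99, 8.87, 5.52 and 6.14 in Mycl KO, against 9.66, 9.36, 9.03, 9.81 and 9.31 in WT cells. The groups were far apart in sets 1 and 2, while library 3 labelled Mycl KO in set 3 stood near the WT arrays and goes against its label. In the same set WT libraries 1 and 4 stood apart from their group, with a standard deviation over genes of 0.511 and 0.410 from the median of the other WT arrays, against 0.212 to 0.286 for the other WT arrays. Differences in set 3 are given with all libraries and without these. Mxd1 in the libraries labelled Mxd1 KO differed from WT by -0.31 ± 0.11 (SE), short of the threshold (limma, adjusted p = 0.260), so that set is named by its labels only.

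In set 2 all 9 genes had passed the test, which is how they come to be listed. Over all genes tested 861 of 14012 passed (6.14%), 3.78% higher and 2.36% lower in Mycl KO. Slc2a1, Svbp, Rlf, Cap1 and Fhl3 were higher in Mycl KO and Ppcs, Ctps, Ndufs5 and Thrap3 lower. For 8 of the 9 genes, Fhl3 being the exception, the Mycl KO and WT arrays did not overlap, as was so for 944 of all genes tested (6.74%). All 9 passed the filter on low values in all 4 comparisons. With a filter at the 50th percentile, 8 were tested in set 3, Fhl3 being dropped. Fhl3 lay at the 46.8 percentile of named genes in WT cells of set 2 and at 46.5 in those of set 3. Ctps lay at 48.5 in Mycl KO cells of set 3. The gene just inside the threshold was Rlf (log2 difference 0.29 ± 0.08, adjusted p = 0.0395), and the next neighbour outside it was Nfyc, a subunit of the NF-Y transcription factor (0.20 ± 0.06, adjusted p = 0.0517). When single arrays were left out, Rlf lost its call in 7 of 10 cases, Ppcs in 6 and Ctps in 1, without WT library 1, while the other 6 genes were called each time. None of the other 71 tested genes in the window passed, which the choice of the 9 fixes. Mycl's chromosome as a whole had 46 of 896 tested genes past the threshold (5.13%).

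In set 1, where the controls carry 1 GFP allele, 0 of the 9 genes passed limma's test, beside 3 of 14023 genes overall (0.0214%), and at an unadjusted p under 0.05 there were 4 of the 9, beside 1991 genes overall (14.2%). In set 3, 0 of the 9 passed, beside 0 of 14033 overall (0%), without KO library 3 also 0 beside 2 genes overall (0.0142%), and without WT libraries 1 and 4 also 0 beside 10 genes overall (0.0706%). With all libraries, 6 of the 9 had an unadjusted p under 0.05, beside 1992 genes overall (14.2%). The KO and control arrays did not overlap for Fhl3 and Ctps in set 1, 2 of the 9 beside 4.46% of all genes, and for Slc2a1, Ctps and Thrap3 in set 3, 3 of the 9 beside 3.56%. The sign of the difference was the same in all 3 Mycl comparisons for 8 of the 9 genes, all but Rlf, with all libraries in. Without WT libraries 1 and 4 of set 3, which stood apart, it was the same for 6 of the 9, since Svbp and Ppcs then changed sign in set 3, both to values near 0. With all libraries, of the 835 genes called in set 2 and measured in all 3 sets, Mycl left out, 418 (50.1%) kept their sign in both other sets. The median absolute log2 difference of the 9 genes was 0.18 in set 1, 0.41 in set 2 and 0.38 in set 3, beside 0.06, 0.07 and 0.10 over all genes tested. For the Mxd1 comparison it was 0.11, the same as over all genes.

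**Figure D1:**
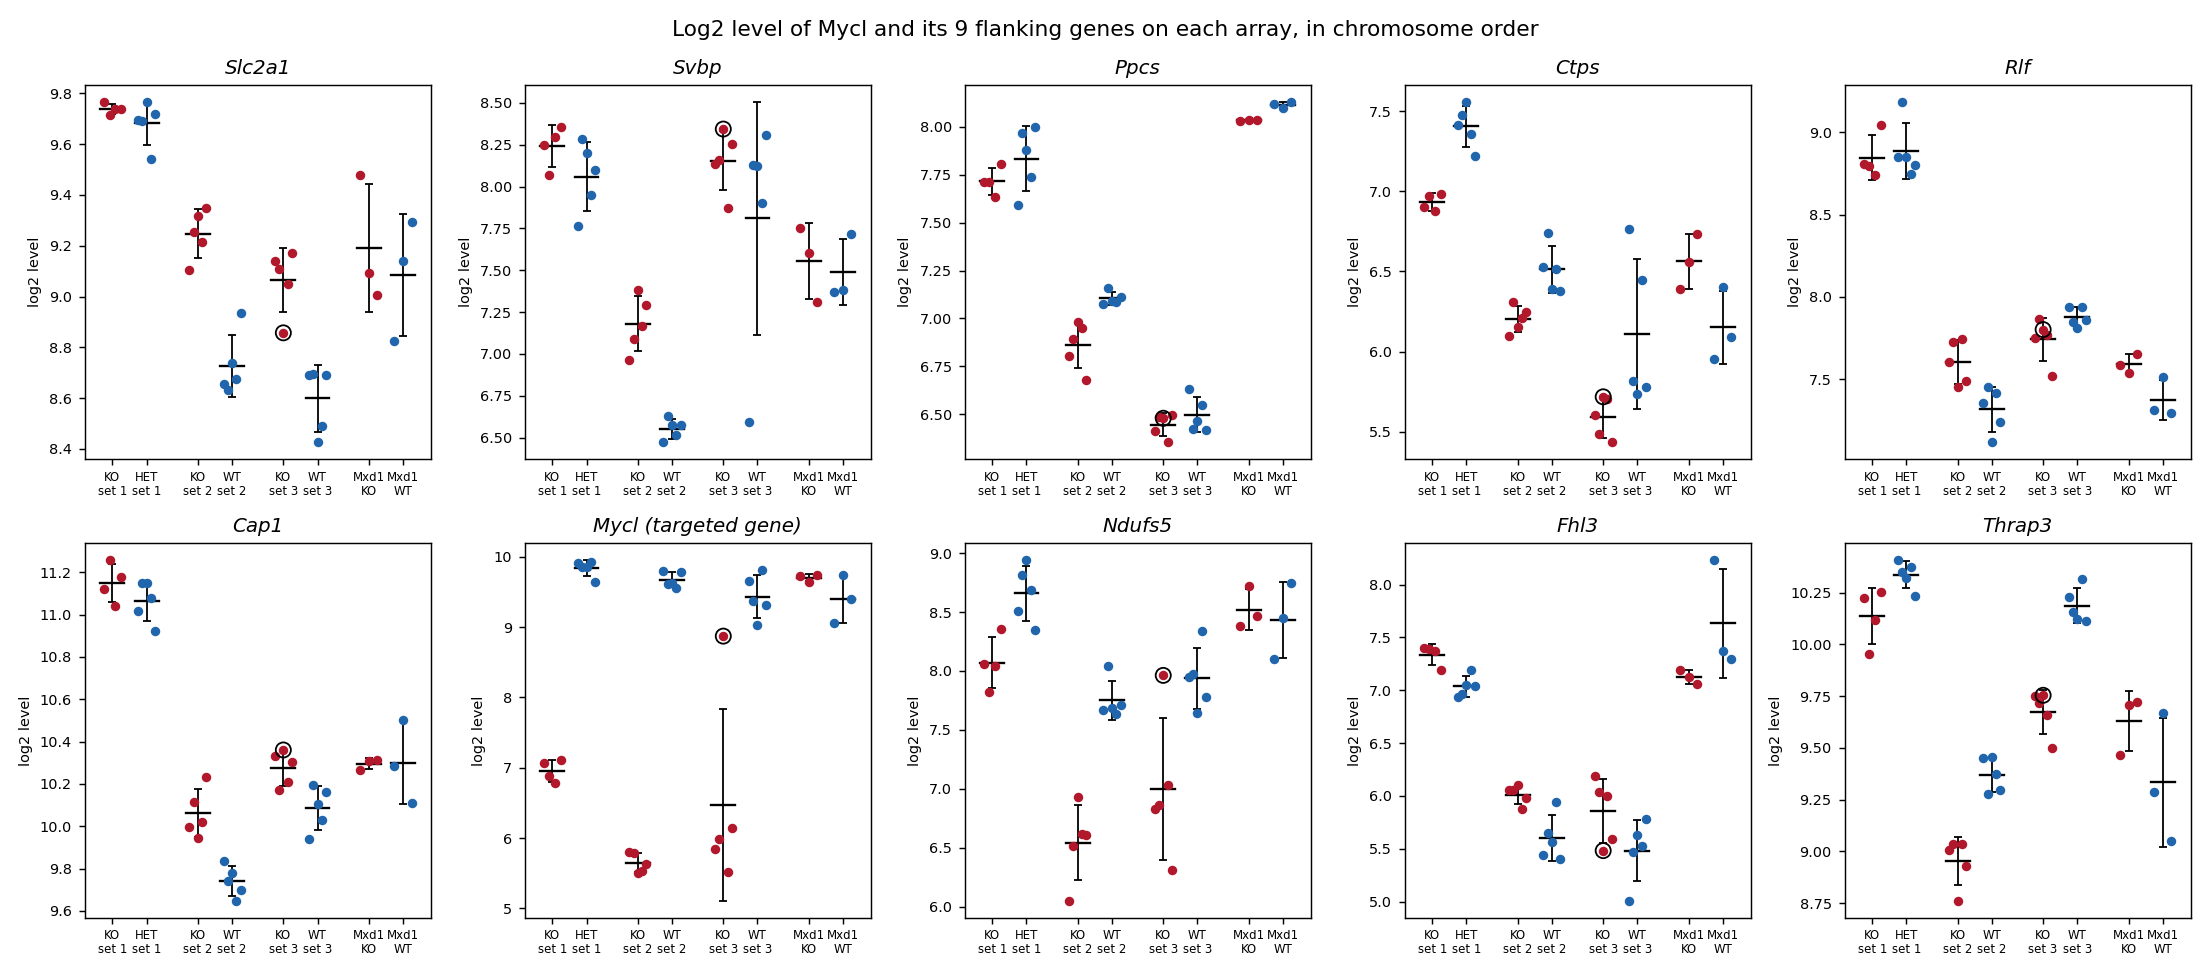
Log2 level of each gene (vertical axes) on every array, by group (horizontal axes), for Mycl and the 9 flanking genes in chromosome order. Red points are KO arrays and blue points HET or WT arrays, lines give the mean and bars 1 SD, and the circled point is library 3 labelled Mycl KO in set 3. Ndufs5 and Thrap3 lie lower and Slc2a1 higher in Mycl KO in sets 2 and 3, apart from the circled array for Ndufs5, while the Mxd1 groups overlap for these 3 genes.

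Among the genes of metabolism, Ndufs5 had the largest difference. It encodes an accessory subunit of respiratory complex I, the first enzyme of the mitochondrial electron transport chain. In set 2 its log2 level was 6.05, 6.52, 6.93, 6.62 and 6.60 in Mycl KO, against 7.67, 8.04, 7.69, 7.63 and 7.71 in WT cells. Every Mycl KO array was below every WT array, a log2 difference of -1.21 ± 0.13 (SE), or a level 2.31 times higher in WT. In set 1 the levels were 8.06, 7.83, 8.05 and 8.36 in Mycl KO, against 8.51, 8.81, 8.94, 8.68 and 8.35 in HET cells. The groups met only at their edges, with the highest KO array at 8.36 and the lowest HET array at 8.35. The difference of -0.59 ± 0.13 was not past the threshold (adjusted p = 0.142). In set 3 the levels were 6.83, 6.87, 7.96, 7.03 and 6.31 in Mycl KO, against 7.95, 7.97, 7.65, 8.34 and 7.78 in WT cells. Only Mycl KO library 3 reached the WT range, and the difference was -0.94 ± 0.25 (adjusted p = 0.279). Without that library it was -1.18 ± 0.17 (adjusted p = 0.129) and the groups did not overlap. Without WT libraries 1 and 4 alone it was -0.80 ± 0.26 (adjusted p = 0.315). Without all 3 libraries it was -1.04 ± 0.15 and passed the test (adjusted p = 0.0220). Ndufs5 was at 8.38, 8.72 and 8.47 in the libraries labelled Mxd1 KO, against 8.10, 8.45 and 8.75 in WT cells, which overlapped (0.09 ± 0.16, adjusted p = 0.814).

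A second cluster of the array is annotated to both Ndufs5 and its pseudogene Ndufs5-ps and was kept out of the tests. Its log2 level averaged 7.86 ± 0.30 in Mycl KO and 8.15 ± 0.10 in WT cells of set 2 (SD, n = 5 each). It averaged 7.92 ± 0.22 in Mycl KO and 8.05 ± 0.21 in WT cells of set 3 (n = 5 each), and 9.06 ± 0.17 in Mycl KO (n = 4) and 9.27 ± 0.14 in HET cells (n = 5) of set 1. These gaps lie in the direction seen for Ndufs5 and are smaller than those of its own cluster. KO and control arrays overlapped in each of these sets. In set 2 they lay at 7.54 to 8.20 in Mycl KO and 8.04 to 8.29 in WT cells. Of 33 other complex I subunits tested, 0 passed the test in any of the 4 comparisons. Among all genes 6.14% passed in set 2 and at most 0.071% in the others. The median log2 difference of these 33 was -0.03 in set 2, against 0.01 over all genes, with 19 of 33 below 0. It was -0.06 in set 1, with 29 of 33 below 0, and -0.10 in set 3, with 23 of 33 below 0. In the Mxd1 set it was 0.13, with 4 of 33 below 0.

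Slc2a1 encodes GLUT1, a glucose transporter of the cell surface. In set 2 its log2 level was 9.10, 9.25, 9.32, 9.22 and 9.35 in Mycl KO, against 8.65, 8.63, 8.74, 8.67 and 8.94 in WT cells. All KO arrays were above all WT arrays, a difference of 0.52 ± 0.07, or 1.43-fold. In set 3 it was 9.14, 9.11, 8.86, 9.05 and 9.17 in Mycl KO, against 8.69, 8.69, 8.43, 8.49 and 8.69 in WT cells. All KO arrays, library 3 included, were again above all WT arrays, with a difference of 0.47 ± 0.08 (1.38-fold), above the threshold in limma's test (adjusted p = 0.150). Without Mycl KO library 3 it was 0.52 ± 0.08 (adjusted p = 0.129), without WT libraries 1 and 4 it was 0.46 ± 0.09 (adjusted p = 0.0881), and without all 3 it was 0.51 ± 0.08 and passed (adjusted p = 0.0343). In set 1 the levels were 9.76, 9.72, 9.74 and 9.74 in Mycl KO, against 9.69, 9.69, 9.76, 9.54 and 9.72 in HET cells. These groups overlapped, and the difference was 0.06 ± 0.05 (adjusted p = 0.596). The difference between the KO effects of sets 1 and 2 was -0.46 ± 0.09 for Slc2a1. It passed limma's test over all genes (adjusted p = 0.0165), as did 155 of 13509 genes (1.15%), but since set 2 chose the gene it is given as a description. Libraries of the Mxd1 set had Slc2a1 at 9.48, 9.09 and 9.01 in the libraries labelled Mxd1 KO, against 8.82, 9.14 and 9.29 in WT cells, a difference of 0.11 ± 0.15 (adjusted p = 0.764). Of 20 other genes of glucose transport and glycolysis, 1 was called higher in set 2, the glucose transporter Slc2a3 (0.50 ± 0.14). Called lower there were 2, the hexokinase Hk3 (-0.26 ± 0.06) and the lactate transporter Slc16a1 (-0.26 ± 0.07). These calls stand beside 6.14% of all genes tested. In the other 3 comparisons 0 of the 20 were called, beside 0.0214% of all genes in set 1, 0% in set 3 and 0.071% in the Mxd1 set.

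Ctps encodes CTP synthase, which makes CTP from UTP, and it alone of the 9 was a gene whose groups were apart in each of the 3 Mycl comparisons. Among all genes tested, groups were apart for 4.46% in set 1, 6.74% in set 2 and 3.56% in set 3. The share apart in all 3 is not given here, and set 2 chose the gene, so this is a description. In set 1 the log2 level of Ctps was 6.90, 6.97, 6.88 and 6.98 in Mycl KO, against 7.41, 7.48, 7.56, 7.36 and 7.22 in HET cells, a difference of -0.47 ± 0.06 (adjusted p = 0.0601). This value lay close to the threshold and passed it without HET library 5. In set 2 it was 6.10, 6.31, 6.15, 6.21 and 6.25 in Mycl KO, against 6.53, 6.74, 6.39, 6.52 and 6.38 in WT cells, a difference of -0.31 ± 0.07. In set 3 it was 5.60, 5.49, 5.72, 5.71 and 5.43 in Mycl KO, against 6.76, 5.81, 5.74, 6.45 and 5.78 in WT cells, a difference of -0.52 ± 0.19 (adjusted p = 0.302). The highest KO array there, at 5.72, lay just below the lowest WT array, at 5.74. WT libraries 1 and 4, which stood apart over the whole array, had the highest levels, 6.76 and 6.45. Without them the difference was -0.19 ± 0.08 (adjusted p = 0.521), and the groups still did not overlap, by a narrow margin. Without KO library 3 it was -0.55 ± 0.21 (adjusted p = 0.335), and without all 3 libraries -0.22 ± 0.08 (adjusted p = 0.351). Ctps was at 6.39, 6.56 and 6.73 in the libraries labelled Mxd1 KO, against 5.96, 6.40 and 6.09 in WT cells, a difference of 0.41 ± 0.13 (adjusted p = 0.231). Of 13 other genes of pyrimidine synthesis, 1 was called in set 2, the uridine-cytidine kinase Uck2, which was lower (-0.46 ± 0.11), and 0 in the other comparisons. Among all genes 6.14% were called in set 2 and at most 0.071% in the others. All 13 pyrimidine genes lay below 0 in set 1 (median -0.19) and 12 of 13 in set 3 (median -0.14), against 7 of 13 in set 2 and 2 of 13 in the Mxd1 set.

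Ppcs encodes phosphopantothenoylcysteine synthetase, an enzyme of coenzyme A synthesis, and had the smallest difference of the 9 genes in set 2. There its log2 level was 6.80, 6.89, 6.98, 6.95 and 6.68 in Mycl KO, against 7.08, 7.16, 7.09, 7.09 and 7.11 in WT cells, with no overlap and a difference of -0.24 ± 0.06. The groups overlapped in set 1, at 7.63 to 7.81 in Mycl KO and 7.59 to 7.999 in HET cells (-0.12 ± 0.08, adjusted p = 0.517), and in set 3, at 6.35 to 6.49 in Mycl KO and 6.42 to 6.63 in WT cells (-0.05 ± 0.06, adjusted p = 0.697). In set 3 the difference was -0.06 ± 0.07 without KO library 3, 0.01 ± 0.07 without WT libraries 1 and 4 and 0.0019 ± 0.071 without all 3. Ppcs was at 8.03, 8.04 and 8.04 in the libraries labelled Mxd1 KO and at 8.12, 8.10 and 8.13 in WT cells. These groups did not overlap, but the difference of -0.08 ± 0.07 did not pass the test (adjusted p = 0.605). Of 7 other genes of coenzyme A synthesis, 0 were called in any comparison, beside 6.14% of all genes in set 2 and at most 0.071% in the others.

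Svbp and Cap1 belong to the cytoskeleton. Svbp encodes the small binding partner of the vasohibins, which remove the terminal tyrosine of tubulin. In set 2 its log2 level was 6.96, 7.09, 7.38, 7.17 and 7.30 in Mycl KO, against 6.47, 6.63, 6.58, 6.51 and 6.58 in WT cells, the largest rise of the 9 genes at 0.63 ± 0.07 (1.54-fold). In set 1 it was 8.25, 8.07, 8.29 and 8.36 in Mycl KO, against 7.76, 8.28, 8.20, 7.95 and 8.10 in HET cells, with overlap (0.18 ± 0.10, adjusted p = 0.432). Under poly IC, in set 3, it was 8.14, 8.16, 8.34, 7.87 and 8.25 in Mycl KO, against 6.60, 8.13, 8.12, 7.90 and 8.31 in WT cells. Of the WT arrays only library 1 stood low, and the difference was 0.34 ± 0.28 (adjusted p = 0.541). Without WT libraries 1 and 4 the difference was -0.03 ± 0.10 (adjusted p = 0.963), so the sign in set 3 rested on those libraries. It was 0.29 ± 0.31 without KO library 3 and -0.08 ± 0.10 without all 3. In the Mxd1 set the groups overlapped, at 7.31 to 7.75 in the libraries labelled Mxd1 KO and 7.37 to 7.71 in WT cells (0.07 ± 0.14, adjusted p = 0.843). Cap1, a protein that helps take actin filaments apart, lies nearest to Mycl of the 9 genes, 2 tested genes before it. In set 2 it was at 10.00, 10.11, 9.94, 10.02 and 10.23 in Mycl KO, against 9.84, 9.74, 9.78, 9.65 and 9.70 in WT cells, with no overlap and a difference of 0.32 ± 0.06. In set 1 it was at 11.04 to 11.26 in Mycl KO and 10.92 to 11.15 in HET cells (0.09 ± 0.06, adjusted p = 0.534), and in set 3 at 10.17 to 10.36 in Mycl KO and 9.94 to 10.19 in WT cells (0.19 ± 0.07, adjusted p = 0.296). Both pairs of groups overlapped. In set 3 the difference was 0.17 ± 0.07 without KO library 3, 0.12 ± 0.07 without WT libraries 1 and 4 and 0.10 ± 0.07 without all 3. In the Mxd1 set the difference was 0.00 ± 0.11 (adjusted p = 0.988). Of 10 other genes of actin turnover, and of the tubulin detyrosination genes measured, 0 were called in any comparison. The share over all genes was 6.14% in set 2 and at most 0.071% in the others.

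The other 3 genes encode nuclear proteins or regulators. Thrap3 encodes an RNA-binding nuclear protein that takes part in transcription and splicing. In set 2 its log2 level was 9.01, 9.04, 8.76, 9.03 and 8.93 in Mycl KO, against 9.45, 9.28, 9.46, 9.37 and 9.30 in WT cells, a difference of -0.41 ± 0.07 with no overlap. Set 3 had Thrap3 at 9.75, 9.71, 9.75, 9.66 and 9.50 in Mycl KO, against 10.23, 10.16, 10.12, 10.31 and 10.11 in WT cells. Every KO array, library 3 included, was below every WT array, with the difference at -0.51 ± 0.07 (adjusted p = 0.106). Without KO library 3 it was -0.53 ± 0.07 (adjusted p = 0.129). Without WT libraries 1 and 4 it was -0.45 ± 0.08 (adjusted p = 0.0521), and without KO library 3 as well -0.47 ± 0.08, which passed the test (adjusted p = 0.0343). In set 1 it was 10.22, 9.95, 10.12 and 10.25 in Mycl KO, against 10.41, 10.35, 10.32, 10.37 and 10.23 in HET cells, which overlapped at their edges (-0.20 ± 0.06, adjusted p = 0.239). Thrap3 was at 9.46, 9.71 and 9.72 in the libraries labelled Mxd1 KO, against 9.29, 9.67 and 9.05 in WT cells, with overlap (0.30 ± 0.15, adjusted p = 0.381). Of 6 tested partners of THRAP3 among splicing and exon junction proteins, 0 were called in any comparison. The share over all genes was 6.14% in set 2 and at most 0.071% in the others. Partners below 0 numbered 5 of 6 in set 1, 5 of 6 in set 2, 6 of 6 in set 3 and 2 of 6 in the Mxd1 set.

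Fhl3 encodes a LIM domain protein that acts as a cofactor of transcription. In set 1 its log2 level was 7.40, 7.39, 7.37 and 7.19 in Mycl KO, against 6.94, 6.97, 7.05, 7.19 and 7.04 in HET cells, a difference of 0.30 ± 0.06 (adjusted p = 0.128). The groups were apart by a narrow margin. In set 2 it was 6.05, 6.05, 6.10, 5.88 and 5.98 in Mycl KO, against 5.44, 5.65, 5.57, 5.94 and 5.40 in WT cells, where WT library 4 reached into the KO range (0.41 ± 0.09). Set 3 gave 6.19, 6.03, 5.48, 5.996 and 5.59 in Mycl KO, against 5.01, 5.47, 5.63, 5.52 and 5.78 in WT cells, with overlap (0.38 ± 0.17, adjusted p = 0.349). That difference was 0.47 ± 0.16 without KO library 3, 0.23 ± 0.15 without WT libraries 1 and 4 and 0.33 ± 0.13 without all 3, with adjusted p of 0.333, 0.688 and 0.384. Fhl3 was at 7.19, 7.13 and 7.06 in the libraries labelled Mxd1 KO, against 8.23, 7.37 and 7.30 in WT cells. The Mxd1 KO arrays were all below the WT arrays, WT library 1 being far above the rest, and the difference was -0.51 ± 0.22 (adjusted p = 0.311). The related genes Fhl1 and Fhl2 were not called in any comparison.

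Rlf, a zinc finger transcription regulator 4 tested genes before Mycl, was the gene whose sign differed between sets. In set 2 its log2 level was 7.61, 7.73, 7.45, 7.74 and 7.49 in Mycl KO, against 7.35, 7.45, 7.12, 7.42 and 7.24 in WT cells, just without overlap (0.29 ± 0.08). Set 3 had Rlf at 7.75, 7.87, 7.80, 7.77 and 7.52 in Mycl KO, against 7.94, 7.85, 7.81, 7.94 and 7.86 in WT cells, with overlap (-0.14 ± 0.07, adjusted p = 0.381). That difference was -0.15 ± 0.08 without KO library 3, -0.10 ± 0.08 without WT libraries 1 and 4 and -0.11 ± 0.09 without all 3. In set 1 it was 8.81, 8.79, 8.74 and 9.04 in Mycl KO, against 8.85, 9.18, 8.85, 8.75 and 8.80 in HET cells (-0.04 ± 0.09, adjusted p = 0.845), a difference whose sign turned when single arrays were left out. The difference between the KO effects of sets 3 and 2 was -0.43 ± 0.11 for Rlf, not past limma's threshold (adjusted p = 0.157), which 1 of 13445 genes passed (0.00744%). Rlf was at 7.58, 7.54 and 7.65 in the libraries labelled Mxd1 KO, against 7.31, 7.52 and 7.29 in WT cells, with no overlap (0.22 ± 0.09, adjusted p = 0.286).

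**Figure D2:**
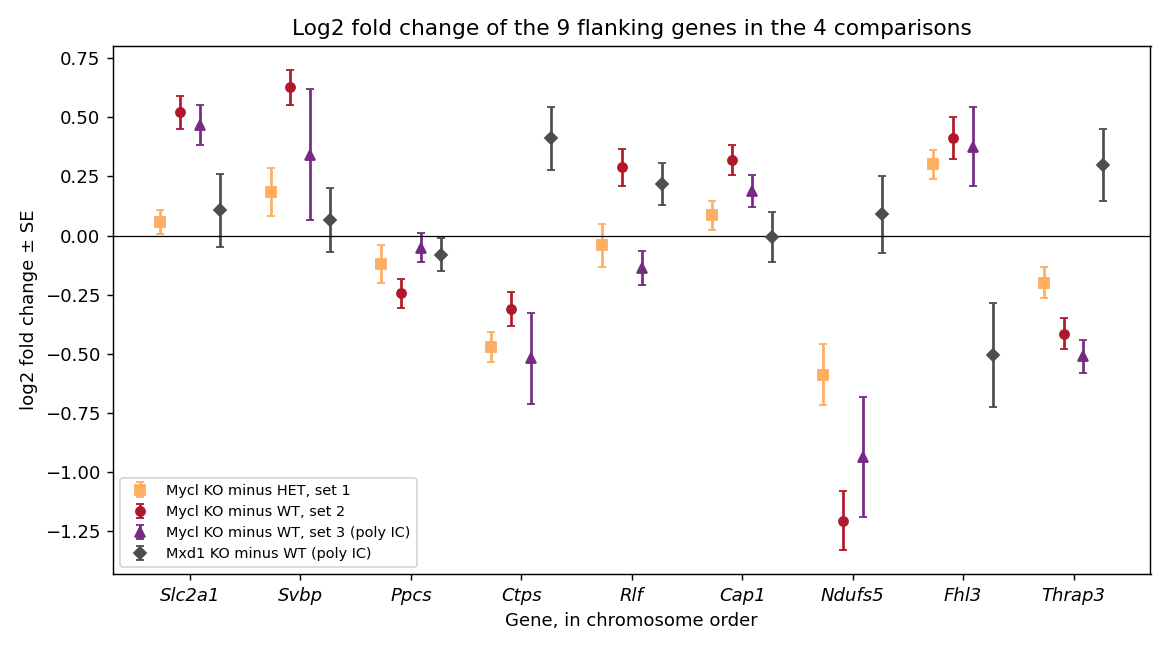
Log2 fold change (KO minus HET or WT, vertical axis) of the 9 flanking genes (horizontal axis, chromosome order) in the 4 comparisons, with bars of 1 SE. In the Mycl comparisons with all libraries 8 of the 9 genes keep one sign and Rlf does not (6 of the 9 without WT libraries 1 and 4 of set 3), and in the Mxd1 comparison (grey) Ctps, Ndufs5, Fhl3 and Thrap3 lie on the other side of 0 and Cap1 at about 0.

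In the Mxd1 set as a whole 0 of the 9 genes passed limma's test, beside 10 of 14080 genes (0.071%). The groups did not overlap for 3 of the 9, namely Rlf, Ppcs and Fhl3, beside 22.6% of all genes tested with 3 arrays a group. Slc2a1, Svbp, Ppcs and Rlf had the sign of their set 2 difference, 4 of the 9, at 0.11 ± 0.15, 0.07 ± 0.14, -0.08 ± 0.07 and 0.22 ± 0.09. Ctps, Ndufs5, Thrap3, Fhl3 and Cap1 had the opposite sign, at 0.41 ± 0.13, 0.09 ± 0.16, 0.30 ± 0.15, -0.51 ± 0.22 and -0.0044 ± 0.11. For Slc2a1, Svbp, Ndufs5 and Cap1 the sign turned when single arrays were left out. Whether these differ from the Mycl comparisons was not tested.

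The position of the 9 genes along the chromosome is given as steps in the order of tested genes of set 2. Before Mycl, Slc2a1 lies 33 steps away, Svbp 30, Ppcs 25, Ctps 14, Rlf 4 and Cap1 2, and after it Ndufs5 lies 9 steps away, Fhl3 18 and Thrap3 40. Genes with a higher level in Mycl KO and genes with a lower level stood on both sides of Mycl in set 2. Within 20 steps on either side, 5 of 40 genes were called in set 2, against 6.14% of all genes. Within 40 steps 9 of 80 were called and within 80 steps 12 of 160. With the 9 genes left out, the calls were 0 of 35, 0 of 71 and 3 of 151 (1.99%). Both counts of 0 are fixed, since the 9 are the set 2 calls within 40 steps, and the 1.99% is lowered by it. They say nothing about the other neighbours. The 3 calls between 41 and 80 steps were Hyi, a gene for a putative hydroxypyruvate isomerase (0.52 ± 0.07), A3galt2, a galactosyltransferase gene (-0.42 ± 0.10), and Rbbp4, a gene for a chromatin protein (-0.28 ± 0.08). These 3 and the gene Smap2 were named after their values were seen. Groups did not overlap for 9 of 80 window genes in set 1 (11.25%, beside 4.46% of all genes) and 10 of 80 in set 2 (12.5%, beside 6.74%). They did not overlap for 4 of 80 in set 3 (5%, beside 3.56%) and 21 of 80 in the Mxd1 set (26.25%, beside 22.6%). These counts include the 9 genes. Of the other 71, groups did not overlap for 7 in set 1 (9.86%) and 2 in set 2 (2.82%). The set 2 share is lowered by leaving out the genes called there, so it cannot be read against 6.74%. The same held for 1 of the 71 in set 3 (1.41%) and 18 in the Mxd1 set (25.4%). Smap2, a regulator of vesicle traffic 7 tested genes before Mycl, was not called with all libraries in, and lay higher in all KO arrays than in all controls in sets 1 and 3 and in the Mxd1 set. Its difference was 0.12 ± 0.04 in set 1, 0.17 ± 0.07 in set 2 and 0.50 ± 0.09 in set 3 (adjusted p = 0.150), and 0.20 ± 0.09 in the Mxd1 set. In set 3 it was 0.55 ± 0.09 without KO library 3 (adjusted p = 0.130), 0.43 ± 0.09 without WT libraries 1 and 4 (adjusted p = 0.0895) and 0.47 ± 0.08 without all 3, where it passed the test (adjusted p = 0.0343).

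**Figure D3:**
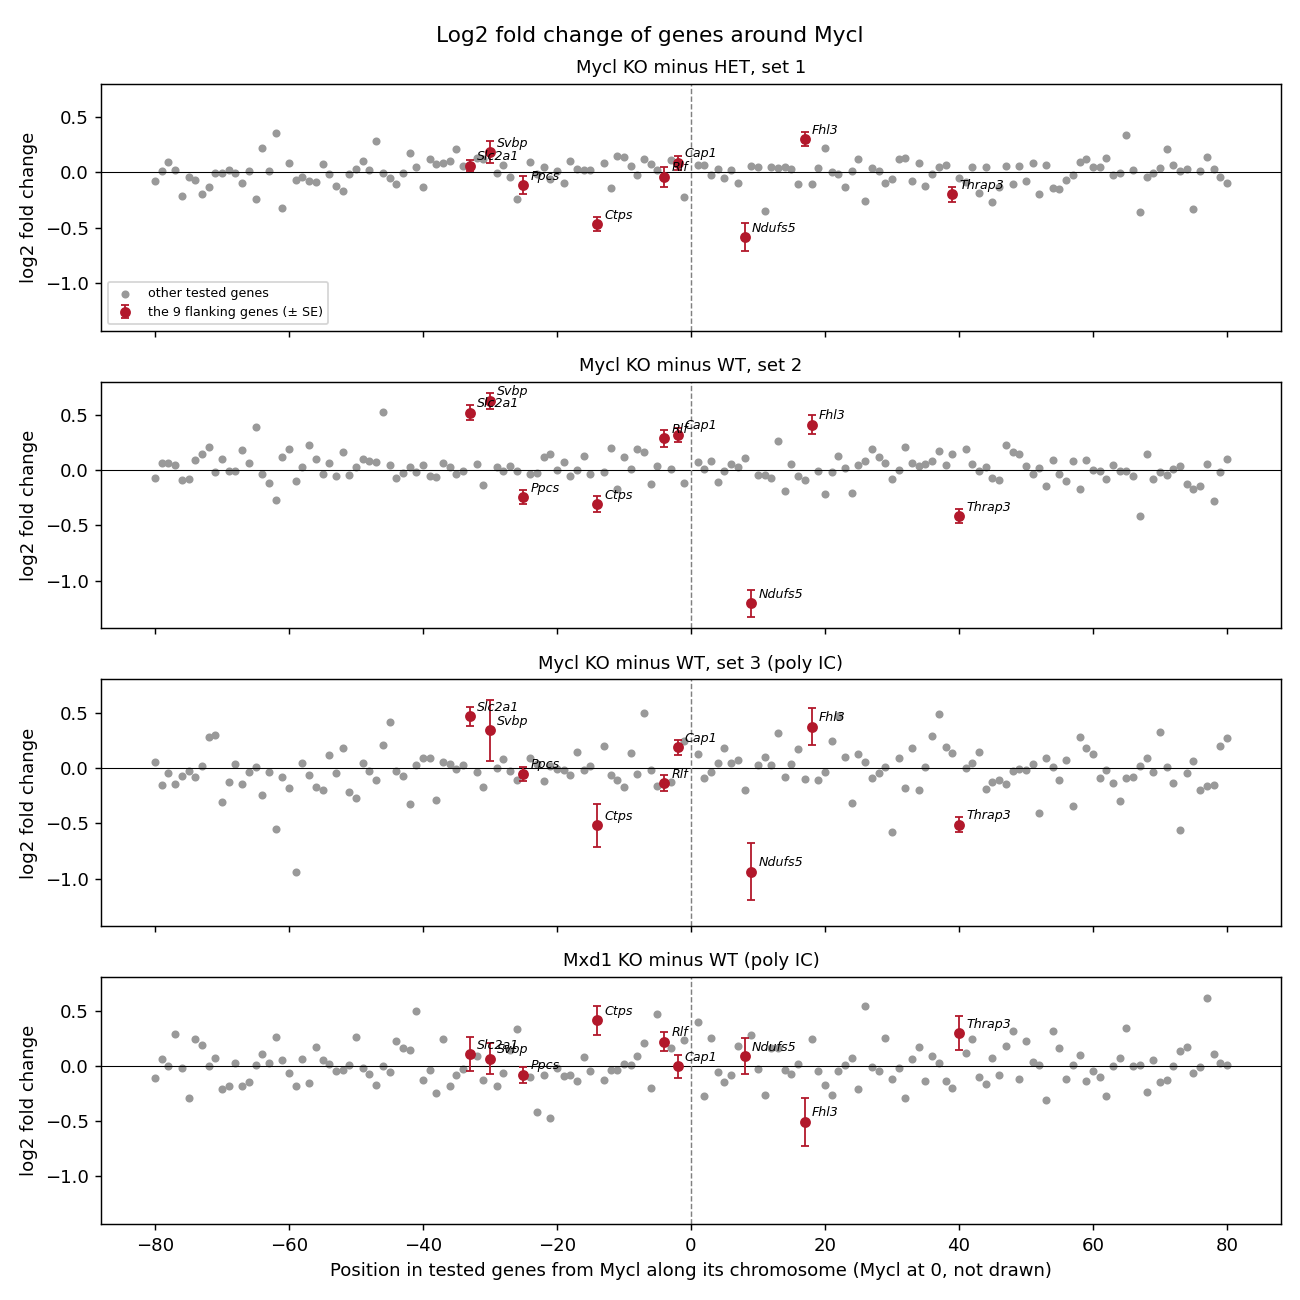
Log2 fold change (vertical axes) of tested genes by their place in gene order from Mycl (horizontal axis, in genes), one panel a comparison, with the 9 flanking genes in red with bars of 1 SE and other genes in grey. In set 2, which chose the 9 genes, Ndufs5 lies below and Svbp above all grey points. The others of the 9 lie within the range of the grey points there. Ndufs5 has the lowest value of the 9 in all 3 Mycl panels.

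Library 3 labelled Mycl KO in set 3 was read gene by gene, as a share of the way from the mean of the other 4 KO arrays to the WT mean. It stood at 84.2% of that way for Mycl, at 102% for Ndufs5 and at 100.1% for Fhl3. For Slc2a1 it stood at 50.3%, outside both ranges, for Ctps at 29.1% and for Thrap3 at 18.6%, where its level of 9.75 was close to the highest of the other KO arrays. For Cap1 and Svbp it lay beyond the KO mean on the side away from WT, at -63.9% and -80.9%. Ppcs stood at 70.9%, within the WT range, and Rlf at 49.2%, within the KO range. So its levels were nearer the WT mean for Mycl, Ppcs, Ndufs5 and Fhl3, and about midway for Slc2a1 and Rlf. They were nearer the mean of the other KO arrays for Svbp, Ctps, Cap1 and Thrap3. For Svbp, Ppcs, Rlf, Cap1 and Fhl3 the other KO arrays and the WT arrays overlapped, so the share says little for these genes. Of the 918 genes over the whole array whose groups did not overlap without this library, it lay nearer the WT mean in 397 (43.2%). These genes were picked as apart with library 3 left out, and no such share is given for the other KO arrays. The 43.2% therefore has no reference and says nothing about the label of library 3. Without it, groups did not overlap for 4 of the 9 genes, Ndufs5 being added to Slc2a1, Ctps and Thrap3, beside 6.54% of all genes. Without it and WT libraries 1 and 4, these 4 genes were again the ones without overlap, beside 10.7% of all genes, and Ndufs5, Slc2a1 and Thrap3 passed the test, 3 of the 9 beside 63 of 14118 genes overall (0.446%).

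**Figure D4:**
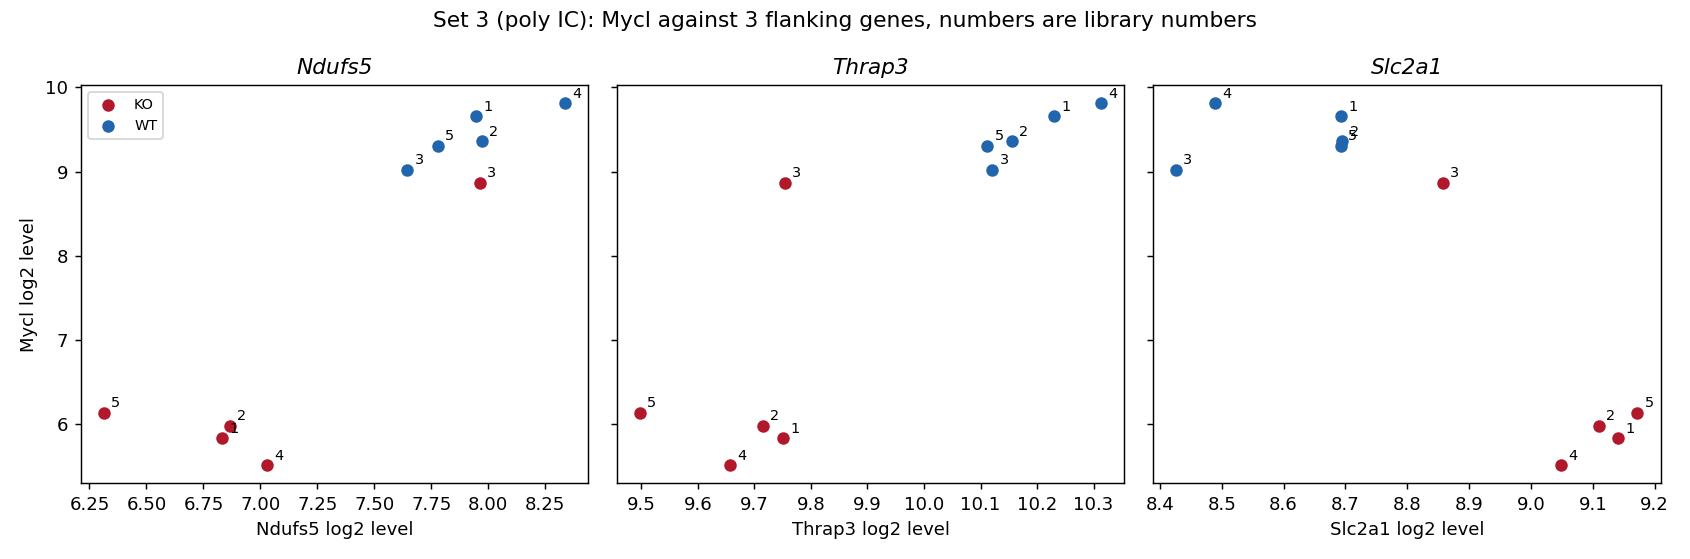
Mycl log2 level (vertical axis) against the log2 level of Ndufs5, Thrap3 and Slc2a1 (horizontal axes) on the 10 arrays of set 3, with library numbers beside the points, Mycl KO in red and WT in blue. KO library 3 lies among the WT arrays for Ndufs5, with the other KO arrays for Thrap3 and between the groups for Slc2a1.

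Likeness to other genes was measured over the 29 Mycl arrays as Pearson's r after each set's mean was subtracted, over 14875 genes, as a description. The arrays share sets and genotypes. Ndufs5 was most like Rpl19 (r = 0.94), Rps3 (0.93) and Rps18 (0.91), which encode ribosomal proteins, and after group means were also removed these values were 0.83, 0.85 and 0.80. Ctps was most like Wdr75, Nup214 and Dhx33 (r = 0.92 each), with 0.85, 0.89 and 0.87 after group means were removed. All 6 of these genes lie on other chromosomes than Mycl. Svbp was most like Irf7 (0.89), a transcription factor of the interferon response, Pttg1 (0.88) and Phf11a (0.88), with 0.91, 0.94 and 0.92 after group means were removed. Slc2a1 was most like Lgals1 (0.85), which encodes galectin, Vim (0.85), which encodes vimentin, and Elavl4 (0.85), and after group means were removed r was 0.49, 0.42 and 0.19. WT libraries 1 and 4 of set 3 carried much of the likeness within groups for Ctps and Svbp. Without them, over 27 arrays and after group means were removed, r was 0.33, 0.47 and 0.43 for Ctps and 0.46, 0.68 and 0.58 for Svbp with the same genes, against 0.83, 0.85 and 0.79 for Ndufs5 and 0.53, 0.42 and 0.22 for Slc2a1. Thrap3 was most like Safb2 (0.88), Rbm25 (0.88) and Rpl4 (0.87). Cap1 was most like Flot2 (0.80), App (0.80) and Zbtb22 (0.79). For Fhl3 the nearest were Dst (0.80), B430306N03Rik (0.78) and Lrch3 (0.76). The values were lowest for Rlf, with Nfatc3 (0.78), Pitpnb (0.77) and Smurf2 (0.71), and for Ppcs, with Ptpmt1 (0.75), Gm1965 (0.74) and Rps28 (0.69). Of these 27 genes, Elavl4 alone lies on the chromosome of Mycl, outside the window. With Mycl itself, r was 0.90 for Ndufs5, 0.86 for Thrap3, 0.72 for Ctps and 0.61 for Ppcs. It was -0.84 for Slc2a1, -0.78 for Fhl3, -0.69 for Cap1, -0.54 for Svbp and -0.18 for Rlf. Mycl was low in the arrays labelled Mycl KO, library 3 of set 3 apart, and these genes were chosen by their KO difference. The difference between genotypes therefore enters these r values with Mycl. Likeness to Mycl within groups, with group means removed, was not tested.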

How the data were processed

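Gene expression was measured on 35 Affymetrix arrays of sorted mouse splenic cDC1, grouped by the labels. The deposited table gives log2 values per transcript cluster. They come from RMA in the Affymetrix Expression Console, per the submitters' processing notes, a method that removes background, makes array distributions equal and combines probes. Tool versions and a genome build were not given in the sources used here. Spike-ins, which the design text mentions, were not used here. No column lacked a sample.

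Of 35556 clusters, 21789 had 1 symbol in the platform annotation, 1621 several and 12146 were not listed in it. For 21698 the Entrez identifier matched the RefSeq table of GRCm38.p6, used for gene order only. This gave 19938 genes, and 999 of them had several clusters, of which the one with the highest mean was used. Each of the 9 flanking genes has 1 cluster. A gene was tested if its value reached the 30th percentile of named clusters in at least the number of arrays of the smaller group. Differences (KO minus HET or WT) were fitted over the whole table with limma 3.58.1 (lmFit, eBayes; R 4.3.3) on the groups compared only. Tests were two-sided at 0.05 after Benjamini-Hochberg adjustment across the tested genes. The fit was tested on simulated data. Precision is limited by the number of arrays, 3 to 5 a group.

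The flanking genes, the pathway and marker lists and the tests were chosen with earlier results of these data known. Named are the 9 genes, Mycl and Mxd1, and neighbours within 40 tested genes called in at least 2 Mycl comparisons or without overlap in all 3 (only Ctps). Also named are the 3 most like genes of each member and the called members of the pathway lists and of the cDC1 markers. Nfyc is named as the gene next to the threshold, and Smap2, Hyi, A3galt2 and Rbbp4 were named after their values were seen. Alternatives were other filters, the mean over clusters, quantile normalization of all arrays, all 8 groups in 1 fit, a replicate block, other window widths and leaving out each array, and, added after seeing the data, set 3, and the likeness between genes, without the libraries that stood apart.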

Additional observations from a re-analysis of the deposited data

Results flagged for a closer look

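Single arrays lay far from the rest of their group by Dixon's test in 6 of 60 gene and group pairs examined, where chance gives about 1 in 20. Mycl was at 8.87 in library 3 labelled Mycl KO of set 3, against 5.52 to 6.14 in the other KO libraries, and at 9.65 in HET library 5 of set 1, against 9.85 to 9.93 in the other HET libraries. Svbp was at 6.60 in WT library 1 of set 3, against 7.90 to 8.31 in the other WT libraries, and this library also had the highest Ctps level of its group, 6.76. Rlf was at 9.18 in HET library 2 of set 1, Ndufs5 at 8.04 in WT library 2 of set 2, above the other WT arrays, and Fhl3 at 7.19 in Mycl KO library 4 of set 1, below the other KO arrays.

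Among Mycl and the 9 flanking genes, the KO effects of sets 1 and 2 differed by limma's test of the difference for 2, beside 155 of 13509 genes overall (1.15%). For Mycl the difference was 1.15 ± 0.11 (adjusted p = 9.75e-06), with a KO effect of -2.88 against HET controls in set 1 and -4.03 against WT controls in set 2, lower in every KO array of both sets. Mycl averaged 9.84 in HET cells of set 1 and 9.67 in WT cells of set 2. In Mycl KO it averaged 6.96 in set 1, where array medians were 6.73 to 6.74, and 5.65 in set 2, where they were 5.76 to 5.81. Whether the scale of each set made the gap was not tested. For Slc2a1 the difference was -0.46 ± 0.09 (adjusted p = 0.0165), with effects of 0.06 and 0.52. Set 2 chose Slc2a1, the controls differ in genotype and the sets were normalized separately. The part of these in the difference was not tested.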

How the results depend on the processing

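Among alternatives, the count of genes called in set 1 moved from 3 to 5 with the 50th percentile filter and 6 with quantile normalization, and Ctps passed under both and without HET library 5. In set 2 it moved from 861 to 358 with all 8 groups in 1 fit, where Ctps, Fhl3 and Svbp lost their call. Quantile normalization gave 478 higher and 458 lower calls in set 2, against 530 and 331 as reported, and Rlf lost its call, as it did with no filter. In set 3 the count of 0 became 1 with no filter and 1910 with all 8 groups in 1 fit, where Ctps, Ndufs5, Slc2a1 and Thrap3 passed, 10 without WT libraries 1 and 4, and 63 without these and KO library 3. In the Mxd1 set 10 became 235 with all 8 groups in 1 fit. A window of 20 tested genes held 5 calls in set 2. Leaving out 1 array gave 1 to 7 calls in set 1. Set 2 then had 408 to 1007, set 3 0 to 2 and the Mxd1 set 3 to 568 calls, with 1 to 11 for the difference of sets 3 and 2 and 30 to 354 for that of sets 1 and 2. In the Mxd1 set, leaving out 1 array turned the sign for Slc2a1 (-0.036 to 0.21), Svbp (-0.032 to 0.19), Cap1 (-0.10 to 0.10) and Ndufs5 (-0.076 to 0.25). The cause of these moves was not tested, beyond the fewer genes or arrays that an alternative leaves.

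The labels do not say whether equal replicate numbers pair the samples. Same-numbered arrays correlated at -0.40 to 0.35, and most arrays did not correlate best with their own number. A pairing was therefore not used in the main fits, though so few arrays cannot exclude one. With the replicate block, 1 gene was called in set 1, 830 in set 2, 1 in set 3 and 16 in the Mxd1 set, and the 9 genes had the same calls as without it.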
